A study of Mus musculus with 17 samples.

Results

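The 7 genes described here, Hmgcs1, Idi1, Fdps, Fdft1, Sqle, Lss and Srebf2, belong to cholesterol synthesis. They were taken from a fixed list of symbols and matched to the Ensembl identifiers of the count files, where all 7 were found among the 53313 identifiers that the 17 libraries shared. The working name of the list includes uptake, but none of the 7 takes up cholesterol, so uptake is described with a separate list. RNA was sequenced from primary tubular epithelial cells (PTEC) and from whole kidneys, in both cases of wild type mice labelled C57BL/6Rj. PTEC were grown from collagenase-digested kidneys in REGM2 medium and were either harvested at day 6 without irradiation (4 libraries, non-senescent in the study's terms) or exposed at confluence to 10 Gy of gamma irradiation and harvested at day 16 (4 libraries, senescent in the study's terms). The kidneys, a snap-frozen piece of the right organ, came from male mice aged 3, 12 and 24 months, with 3 libraries per age. Day in culture and irradiation changed together, so they cannot be told apart.

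Cells make cholesterol from acetyl-CoA in a long chain of enzymatic steps, first to mevalonate, then to isoprenoid units and farnesyl diphosphate, then to squalene, which is closed into lanosterol and trimmed to cholesterol. Most of the genes of this chain share one regulator, the transcription factor SREBP2, which is held in the endoplasmic reticulum with its escort SCAP and the INSIG proteins while sterols are plentiful and is cleaved and sent to the nucleus when they fall. SREBP2 also drives the uptake of lipoproteins, so synthesis and uptake usually rise and fall together, whereas LXR receptors drive the genes that export cholesterol when it accumulates.

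Hmgcs1 encodes the synthase that makes HMG-CoA, a precursor of mevalonate (ENSMUSG00000093930, chromosome 13, 119690379 to 119708260, plus strand, coordinates of GRCm38 throughout). Idi1 encodes the isomerase that converts isopentenyl diphosphate (ENSMUSG00000058258, chromosome 13, 8885501 to 8892451, plus strand). Fdps encodes the synthase of farnesyl diphosphate (ENSMUSG00000059743, chromosome 3, 89093588 to 89101959, minus strand). Fdft1 encodes squalene synthase, the first step committed to sterols (ENSMUSG00000021273, chromosome 14, 63145150 to 63179578, minus strand). Sqle encodes squalene epoxidase (ENSMUSG00000022351, chromosome 15, 59315077 to 59331192, plus strand), and Lss the cyclase that makes lanosterol (ENSMUSG00000033105, chromosome 10, 76531588 to 76557138, plus strand). Srebf2 encodes SREBP2 itself (ENSMUSG00000022463, chromosome 15, 82147181 to 82205379, plus strand), and the microRNA gene Mir33 lies in it outside the exons.

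Since SREBP2 acts at promoters, the 250 bases ahead of the RefSeq start site are shown for the 4 members with an entry in the RefSeq promoter table (GRCm38.p6), Hmgcs1, Idi1, Lss and Srebf2. Sqle, Fdps and Fdft1 had none. The windows of Idi1, Lss and Srebf2 run past the gene starts given above, because the RefSeq start lies further into the gene. The sequences run 5′ to 3′ in the direction of the gene, and capitals mark the sterol regulatory element, searched as TCACNCCAC on both strands.
Hmgcs1, chr13:119690101-119690350, + strand: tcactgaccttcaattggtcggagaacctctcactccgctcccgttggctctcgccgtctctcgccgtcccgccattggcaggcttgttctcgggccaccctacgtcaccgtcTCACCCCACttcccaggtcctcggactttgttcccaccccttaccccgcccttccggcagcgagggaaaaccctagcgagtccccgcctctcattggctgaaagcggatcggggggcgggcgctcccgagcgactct
Idi1, chr13:8885356-8885605, + strand: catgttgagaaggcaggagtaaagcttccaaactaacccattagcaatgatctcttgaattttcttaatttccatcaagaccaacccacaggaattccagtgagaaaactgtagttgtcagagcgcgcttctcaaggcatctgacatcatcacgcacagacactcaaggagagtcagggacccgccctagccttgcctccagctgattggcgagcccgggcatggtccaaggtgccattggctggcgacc
Lss, chr10:76531355-76531604, + strand: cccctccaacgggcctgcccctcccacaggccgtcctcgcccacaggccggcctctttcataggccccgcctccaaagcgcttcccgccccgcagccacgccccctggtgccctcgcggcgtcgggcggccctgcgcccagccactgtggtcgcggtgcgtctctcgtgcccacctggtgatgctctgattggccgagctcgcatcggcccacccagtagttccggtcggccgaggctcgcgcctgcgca
Srebf2, chr15:82147019-82147268, + strand: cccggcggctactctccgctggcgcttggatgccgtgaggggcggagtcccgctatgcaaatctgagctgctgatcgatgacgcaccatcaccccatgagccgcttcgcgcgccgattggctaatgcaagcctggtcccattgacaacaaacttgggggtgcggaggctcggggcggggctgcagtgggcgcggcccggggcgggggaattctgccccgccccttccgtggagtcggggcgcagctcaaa
The element was found in 1 of the 4, Hmgcs1, as TCACCCCAC at bases 137 to 129 before the start, and 1.05% of the 32851 promoters of the table held a match in a window of the same length. CCAAT, the NF-Y motif, was found in all 4, against 33.8% of the table, and GGGCGG, the Sp1 motif, in all 4, against 32.7%. The E-box CACGTG was found in none of the 4, against 6.02%. None of the motifs overlapped another by its letters in the Hmgcs1 promoter. Only exact matches were searched, so an element that differs by 1 letter was not counted, and a promoter without a match may still hold one. Such a match is a description of these letters and says nothing on binding.

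Depth did not limit these genes. The total counts ranged from 26963442 to 35409144 in PTEC and from 37311247 to 66894790 in kidneys. The values below are CPM, the counts of a gene relative to the size of its library, scaled over all 17 libraries by the trimmed mean of M values (TMM), and group means are given with the SD. On the label of the cells, 7 to 11 of the 14 proximal tubule markers reached 1 CPM in PTEC at day 6 and 7 in irradiated PTEC, against 14 of 14 in every kidney. The endocytic receptor Lrp2 stood at 52.0 to 426 CPM at day 6, while the organic anion transporters Slc22a6 and Slc22a8 and the oxygenase Miox had at most 10 counts in any PTEC library. In bulk RNA, fewer cells of a type and less RNA per cell cannot be told apart.

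All 7 genes were lower in irradiated PTEC at day 16 than in PTEC at day 6, by a factor of 2.15 to 7.20 in mean CPM. Every member was called lower, which here means that edgeR's quasi-likelihood test gave an adjusted p below 0.05 with a log2 fold change of more than 0.5 in size, and 19.7% of the 15434 genes tested were called lower and 20.1% higher. No irradiated library overlapped a day 6 library for any member, as was the case for 20.6% of genes in this direction. The median log2 fold change of the 7 genes was -1.80, against -0.0020 over all genes tested.

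Among the early steps, Hmgcs1 stood at 532, 473, 409.6 and 399.6 CPM in replicates 1 to 4 at day 6 and at 113, 92.6, 82.2 and 77.1 CPM after irradiation. The lowest day 6 library was thus several times above the highest irradiated one. This gave a log2 fold change of -2.29 (95% interval -2.66 to -1.91, adjusted p = 1.09e-05, edgeR). Idi1 stood at 78.3, 65.4, 33.5 and 36.0 CPM at day 6 and at 10.3, 8.12, 5.66 and 5.51 CPM after irradiation. In both groups replicates 1 and 2 were above replicates 3 and 4. Its log2 fold change of -2.82 was the lowest of the 7, with the widest interval (-3.56 to -2.09, adjusted p = 0.000166, edgeR). Fdps stood at 42.0, 40.5, 69.6 and 33.2 CPM at day 6 and at 13.0, 9.73, 11.6 and 8.58 CPM after irradiation. Replicate 3 was the highest at day 6 for this gene. In edgeR its log2 fold change was -2.09 (-2.63 to -1.55, adjusted p = 0.000160, edgeR).

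**Figure D1:**
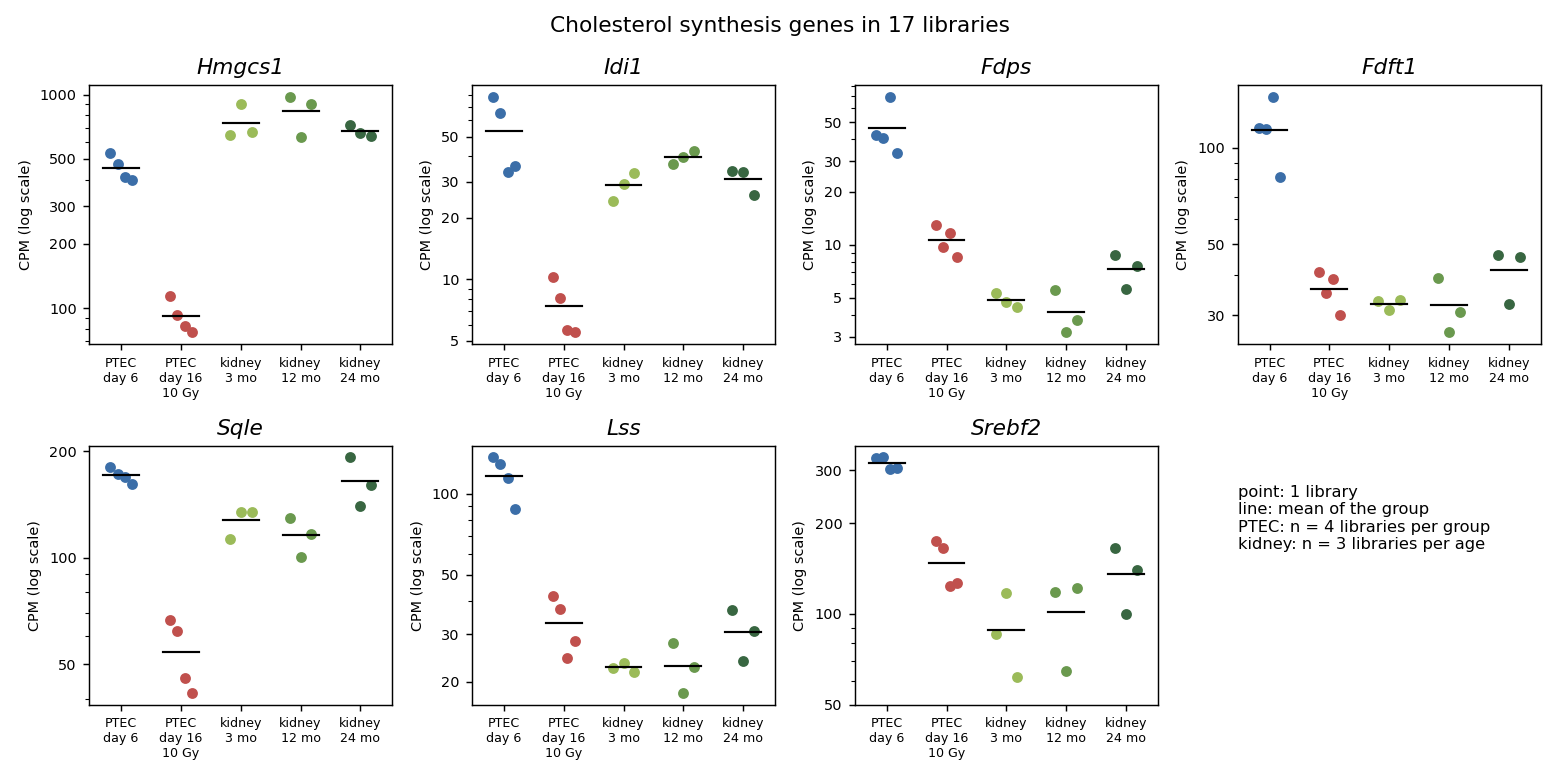
CPM of the 7 genes on a log scale, 1 panel per gene, with 1 point per library and a line at the mean of each group. All irradiated PTEC libraries lie below all day 6 libraries in every panel, whereas the kidney ages overlap or lie closer to each other, and Hmgcs1 is at 636 to 978 CPM in kidneys against 77.1 to 532 CPM in PTEC.

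The enzymes of the squalene steps moved the same way. Fdft1 stood at 116, 114, 145 and 81.1 CPM at day 6 and at 40.9, 35.3, 38.8 and 30.0 CPM after irradiation. As for Fdps, replicate 3 was the highest at day 6 and replicate 4 the lowest. The log2 fold change was -1.63 (-2.04 to -1.22, adjusted p = 0.000129, edgeR). Sqle stood at 181, 172, 169 and 161 CPM at day 6 and at 66.9, 62.1, 45.6 and 41.5 CPM after irradiation. The day 6 libraries were close together, while the irradiated ones fell into a higher pair (replicates 1 and 2) and a lower pair. Together they gave a log2 fold change of -1.64 (-2.01 to -1.26, adjusted p = 8.02e-05, edgeR). Lss stood at 137, 129, 114 and 88.2 CPM at day 6 and at 41.5, 37.3, 24.6 and 28.5 CPM after irradiation. Replicates 1 and 2 were again the higher ones. Its log2 fold change, -1.80, equalled the median of the 7 (-2.25 to -1.35, adjusted p = 0.000132, edgeR).

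The regulator itself fell least. Srebf2 stood at 329.8, 332, 303 and 304 CPM at day 6 and at 175, 165, 124 and 126 CPM after irradiation. The log2 fold change was -1.08 (-1.41 to -0.74, adjusted p = 0.000444, edgeR). Libraries with the same replicate number deviated together in PTEC, and the same-numbered day 6 library was 1.88 to 2.45 times the irradiated one for Srebf2. For Idi1 this range was 5.92 to 8.05 and for Hmgcs1 4.69 to 5.19, so the ranges of both enzymes lay above that of the regulator. Differences between members were not tested.

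Levels were also taken per kilobase of exon, to set genes of different length side by side. The length was that of all annotated exons of a gene together (3505 bases for Idi1, 10787 for Lss), whichever transcripts were expressed. The order of the genes thus depends in part on the annotation. Hmgcs1 led at day 6 with 98.7 ± 13.4 CPM per kb (SD, n = 4), followed by Srebf2 with 44.2 ± 2.19. After irradiation Srebf2 (20.6) and Hmgcs1 (19.9 ± 3.50) stood side by side at the head of the order, within their spread. At the other end Idi1 moved from 15.2 CPM per kb, above Fdps (11.0) and Lss (10.8), to 2.11, below Lss (3.06) and Fdps (2.55).

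The rest of the pathway was described with a list of 15 other sterol enzymes, of which 14 were tested. Here 13 were lower in irradiated PTEC, where 19.7% of all genes were, and none was higher (20.1% of all genes). The median log2 fold change was -1.52. The lowest log2 fold change was that of phosphomevalonate kinase Pmvk, at -2.64 (adjusted p = 0.000113, edgeR), and the smallest fall that was called that of the lathosterol desaturase Sc5d, at -0.56 (adjusted p = 0.00917, edgeR). Hsd17b7 was not called (log2 fold change -0.47, adjusted p = 0.206, edgeR). All tested enzymes thus had negative values, from the first to the last step of the chain.

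The genes that control SREBP2 did not move as a block. Of 11, 3 were lower and 1 was higher, against 19.7% and 20.1% of all genes. The median log2 fold change of the 11 was -0.06. Insig1, itself a target of SREBP2 that retains it in the endoplasmic reticulum, stood at 131, 138, 117 and 102 CPM at day 6 and at 39.2, 34.9, 22.1 and 21.1 CPM after irradiation (log2 fold change -2.03, adjusted p = 0.000111, edgeR). Its paralogue Insig2 went the other way, from 42.2 ± 2.76 to 94.8 ± 23.0 CPM (SD, n = 4 each; log2 fold change 1.19, adjusted p = 0.000573, edgeR). Srebf1, which encodes the fatty acid regulator SREBP1, fell by 0.58 on the log2 scale (adjusted p = 0.00343, edgeR), and the escort Scap had a log2 fold change of 0.31 that was not called (adjusted p = 0.0572, edgeR).

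The list of uptake genes was split. It holds regulators as well as receptors, so a rise within it is not by itself a rise in uptake. Of 13 tested, 4 were lower and 2 higher, with a median of -0.12, where 19.7% of all genes were lower and 20.1% higher. The sterol carrier Stard4 (log2 fold change -1.82, adjusted p = 0.000283, edgeR) and the HDL receptor Scarb1 (-0.91, adjusted p = 0.00168, edgeR) were among the lower ones. The multi-ligand receptor Lrp1 rose from 31.1 ± 14.6 to 153 ± 62.6 CPM (SD, n = 4 each; log2 fold change 2.32, adjusted p = 0.00294, edgeR), and the ubiquitin ligase Mylip rose by 0.89 (adjusted p = 0.0324, edgeR). Without day 6 replicate 1, 2 or 3, or without irradiated replicate 2 or 4, 1 of these genes was called higher, and without day 6 replicate 4 there were 4.

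**Figure D2:**
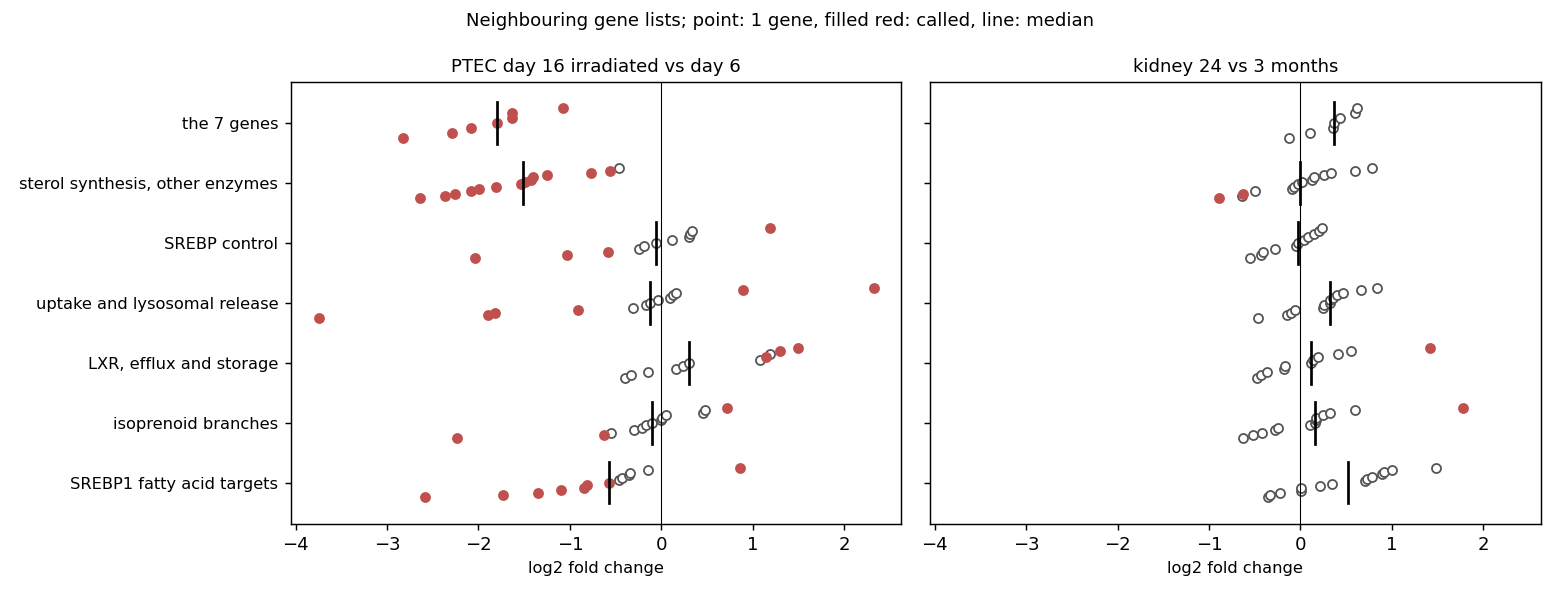
Log2 fold changes of the 7 genes and of 6 lists of neighbouring genes, in PTEC (irradiated at day 16 against day 6, left) and in kidneys (24 against 3 months, right). Each point is a gene, red where called, and the line is the median of the list. In PTEC the 7 genes and the other sterol enzymes have medians of -1.80 and -1.52, and in kidneys 0.37 and -0.0018.

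No gene of LXR signalling, efflux and storage was called lower, against 19.7% of all genes. Of the 11 tested, 3 were called higher, against 20.1% of all genes, and the median was 0.30. The transporter gene Abcg1 had the highest value, 1.49 (adjusted p = 0.0228, edgeR), a call lost without day 6 replicate 1 or 3 or irradiated replicate 4 (log2 fold changes 1.26, 1.35 and 1.21). Apoe, the apolipoprotein of cholesterol export, rose from 35.7 ± 4.56 to 77.7 ± 25.9 CPM (log2 fold change 1.15, adjusted p = 0.00252, edgeR). With the replicate number as a block 5 of these genes were called higher, without day 6 replicate 4 there were also 5, and without day 6 replicate 2 there was 1 called lower.

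Of the isoprenoid branches that leave the chain at farnesyl diphosphate, 13 genes were tested, with a median of -0.10. Among them 2 were lower and 1 was higher, against 19.7% and 20.1% of all genes. Pdss1, for the side chain of coenzyme Q, fell by 2.23 on the log2 scale (adjusted p = 4.49e-05, edgeR), and Ggps1, which uses the product of Fdps to make geranylgeranyl diphosphate, rose by 0.72 (adjusted p = 0.00219, edgeR). Leaving out day 6 replicate 3 left 1 lower gene, whereas 2 genes were higher with the replicate number as a block and also without day 6 replicate 1 or without irradiated replicate 3. Of 13 tested fatty acid genes driven by SREBP1, 7 were lower and 1 higher, with a median of -0.57, from the elongase Elovl6 (log2 fold change -2.59, adjusted p = 1.60e-05, edgeR) to the phosphatase Lpin1 (0.86, adjusted p = 0.00465, edgeR).

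Other features of the cultures differed between these groups at the same time. The 12 proliferation markers summed to 1156 to 1920 CPM at day 6 and to 71.2 to 89.8 CPM after irradiation, with all 12 called lower. The 14 proximal tubule markers summed to 268 to 840 CPM at day 6 and to 209 to 322 CPM after irradiation. Of the 8 tested, 5 were called lower and none higher, with a median log2 fold change of -1.76. The 5 podocyte markers summed to 72.0 to 163 CPM at day 6 and to 168 to 361 CPM after irradiation. Of the 4 tested, 2 were called higher and none lower. The 5 loop of Henle markers fell from 13.3 to 39.7 CPM to 0.963 to 2.88 CPM, and 7 fibroblast and pericyte markers rose from 11.7 to 80.3 CPM to 84.8 to 318 CPM. The part of these in the fall of the 7 genes was not tested.

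In whole kidneys none of the 7 genes was called between any of the ages. In the comparison of 24 with 3 months 1.89% of the 17067 genes tested were called higher and 0.451% lower. 6 of the 7 log2 fold changes were positive, with a median of 0.37 against 0.00071 over all genes tested, and 1 had an unadjusted p under 0.05. The lowest adjusted p was 0.255 (edgeR), and DESeq2 called none either. No interval reached below -0.58, so in whole-kidney RNA a fall of the size seen in PTEC was outside the interval of every member. A fall in only some of the cells cannot be read from whole-kidney RNA and was not tested. The 3-month kidneys and the older ones were counted by the authors on gene sets that differ in part, and this cannot be told apart from age.

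Hmgcs1 stood at 648, 901 and 670.5 CPM at 3 months, at 978, 636 and 903 CPM at 12 months and at 724, 663 and 639 CPM at 24 months. The 3 ages overlapped. The log2 fold change at 24 against 3 months was -0.13 (95% interval -0.58 to 0.32, adjusted p = 0.707, edgeR). Idi1 stood at 24.1, 29.4 and 33.0 CPM at 3 months, at 36.8, 39.9 and 42.4 CPM at 12 months and at 33.7, 33.4 and 26.0 CPM at 24 months. Its 12-month kidneys lay above all others, and the 3- and 24-month kidneys overlapped. The log2 fold changes were 0.44 at 12 against 3 months (0.08 to 0.81, unadjusted p = 0.0232, adjusted p = 0.204, edgeR) and 0.11 at 24 against 3 months (-0.26 to 0.48, adjusted p = 0.699, edgeR). Fdps was the lowest of the 7, at 5.33, 4.75 and 4.43 CPM at 3 months, 5.51, 3.19 and 3.73 CPM at 12 months and 8.72, 5.58 and 7.55 CPM at 24 months. All 24-month kidneys lay above all younger ones. The log2 fold change at 24 against 3 months was 0.59 (0.03 to 1.16, unadjusted p = 0.0405, adjusted p = 0.255, edgeR).

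Fdft1 stood at 33.1, 31.1 and 33.5 CPM at 3 months, at 39.3, 26.5 and 30.6 CPM at 12 months and at 46.4, 32.4 and 45.6 CPM at 24 months. One 24-month kidney, replicate 2, lay within the 3-month range (log2 fold change 0.35, -0.08 to 0.79, adjusted p = 0.347, edgeR). Sqle stood at 113, 135 and 135 CPM at 3 months, at 129.7, 100.4 and 117 CPM at 12 months and at 192, 140.5 and 161 CPM at 24 months. The oldest kidneys lay above all others (log2 fold change at 24 against 3 months 0.37, -0.01 to 0.75, adjusted p = 0.286, edgeR). Lss stood at 22.6, 23.5 and 21.8 CPM at 3 months, at 27.8, 18.2 and 22.7 CPM at 12 months and at 37.0, 23.8 and 30.9 CPM at 24 months. The 3-month kidneys were within 2 CPM of each other and below the 24-month ones (log2 fold change 0.44, -0.02 to 0.90, adjusted p = 0.292, edgeR). Srebf2 stood at 86.0, 118 and 61.6 CPM at 3 months, at 118, 64.5 and 122 CPM at 12 months and at 165, 100.3 and 140.1 CPM at 24 months. Its ages overlapped and its spread was the widest (log2 fold change 0.61, -0.11 to 1.34, adjusted p = 0.332, edgeR). Fdps, Lss and Sqle thus did not overlap between 3 and 24 months, in the higher direction, as was the case for 12.0% of all genes, and no member did so in the lower direction (9.84%).

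**Figure D3:**
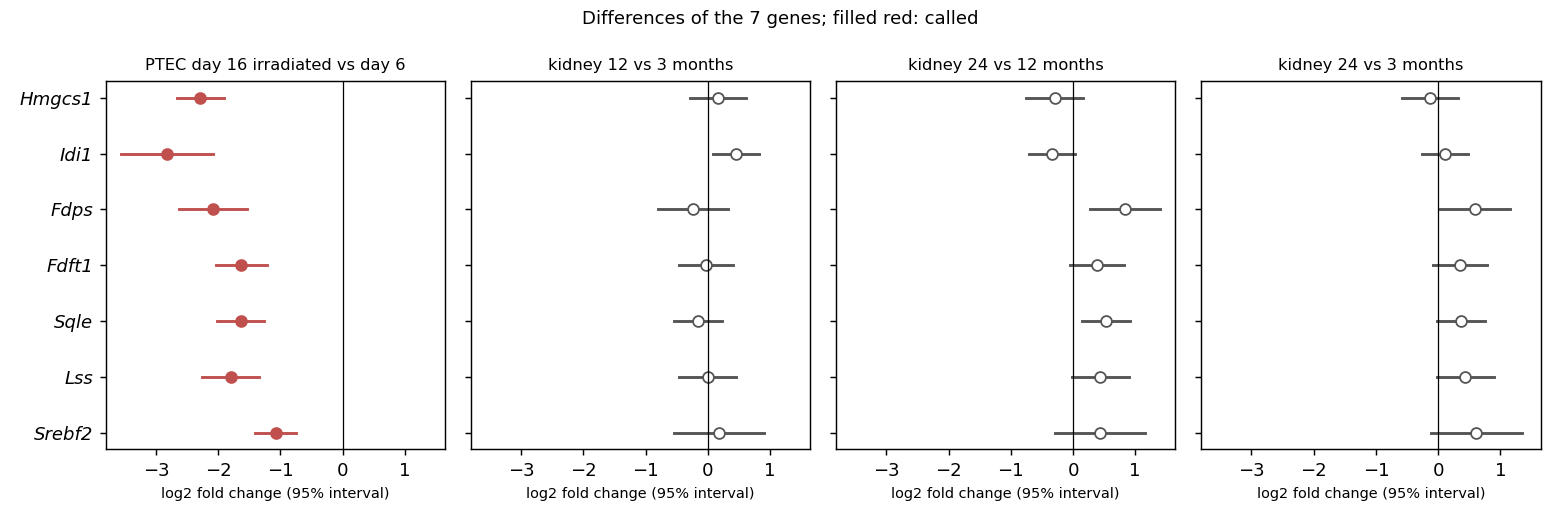
Log2 fold changes of the 7 genes with their 95% intervals (edgeR) in PTEC and in the 3 comparisons of kidney age, red and filled where called. All PTEC intervals end at or below -0.74, while none of the kidney comparisons gives a call.

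At 12 against 3 months 1.22% of genes were called higher and 1.36% lower, and the members' log2 fold changes ran from -0.24 for Fdps to 0.44 for Idi1 with 1 unadjusted p under 0.05. Idi1 did not overlap in the higher direction (11.5% of genes) and none in the lower (8.81%). At 24 against 12 months 0.896% were called higher and 0.434% lower. Sqle (0.53, unadjusted p = 0.0123, adjusted p = 0.184, edgeR) and Fdps (0.83, unadjusted p = 0.00844, adjusted p = 0.153, edgeR) had unadjusted p-values under 0.05. Both did not overlap in the higher direction, as did 12.7% of genes, and Idi1 (-0.34) did not in the lower direction, as did 12.8%. Same-numbered kidneys of 12 and 24 months deviated together, although nothing in the labels ties them to one another. With these ages fitted alone and the replicate number as a block, an alternative chosen after the data were seen, Sqle (0.52, adjusted p = 0.0121, edgeR) and Fdps (0.84, adjusted p = 0.0110, edgeR) were called higher. That fit called 1297 of 16686 genes higher and 903 lower, while the block over all 9 kidneys called 0 in either direction. DESeq2 called none of the members.

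Of the other 14 sterol enzymes tested in kidneys, 2 were called lower at 24 against 3 months, where 0.451% of all genes were. None was higher (1.89% of all genes), and the median was -0.0018. The demethylase of lanosterol Cyp51 stood at 576 ± 69.6 CPM at 3 months, 570.2 ± 22.8 at 12 months and 310.1 ± 17.3 at 24 months (SD, n = 3 each), a log2 fold change of -0.89 (adjusted p = 0.0148, edgeR). The sterol isomerase Ebp stood at 149.6 ± 5.67, 156 ± 15.6 and 96.4 ± 4.59 CPM (-0.63, adjusted p = 0.0410, edgeR). For both genes all 24-month kidneys lay below all younger ones. The calls did not last when libraries were left out: Cyp51 was not called without any one of the 24-month kidneys (adjusted p 0.0505 to 0.0662, edgeR), and Ebp without any one of the 3- or 24-month kidneys (0.0526 to 0.184). With the replicate number as a block neither was called (adjusted p = 0.0734 and 0.163, edgeR). Neither was called with these 2 ages fitted alone and the block. Ebp was not called with no filter or with these 2 ages alone either. Over the alternatives the highest adjusted p was 0.263 for Cyp51 and 0.404 for Ebp (edgeR). Both were also called at 24 against 12 months (Cyp51 -0.86, adjusted p = 0.0260, Ebp -0.68, adjusted p = 0.0443, edgeR), a comparison that shares the 24-month kidneys, and there neither call was kept with the block over all 9 kidneys (0.128 and 0.173) or without any one kidney of either age. With the 12- and 24-month kidneys fitted alone and the block, both were called (0.00204 and 0.00582, edgeR), and of the list 3 were then lower and 2 higher.

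No uptake gene was called between ages. No gene of SREBP control was called either, among them Insig1, which stood between 43.4 and 85.8 CPM in the 9 kidneys, and Srebf1, between 39.4 and 88.2 CPM. With the 12- and 24-month kidneys fitted alone and the replicate number as a block, 1 uptake gene was higher at 24 months and 2 genes of SREBP control were lower, among them Insig1 (-0.54, adjusted p = 0.0177, edgeR).

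From the list of LXR signalling, efflux and storage, Apoe was highest in the oldest kidneys, at 163 ± 35.4 CPM at 3 months, 227 ± 11.6 at 12 months and 434 ± 55.2 at 24 months (24 against 3 months 1.42, adjusted p = 0.00734, 24 against 12 months 0.95, adjusted p = 0.0443, edgeR). The first call was lost with the 2 ages fitted alone and the block (adjusted p = 0.137, edgeR). The second was lost with the block over all 9 kidneys (adjusted p = 0.143), with no filter (0.0578) and without any one kidney of either age (0.0900 to 0.166), but not with the 2 ages alone and the block (0.00137). Of the isoprenoid genes Pggt1b, a subunit of an enzyme that prenylates proteins, was higher at 24 months (1.78, adjusted p = 0.00385, edgeR) and at 12 months (1.65, adjusted p = 0.00703, edgeR) than at 3 months. With the 2 ages fitted alone and the block neither was called (adjusted p = 0.0772 and 0.406, edgeR), and at 12 months it was not called without 3-month replicate 1 either (1.61, adjusted p = 0.0537). Of 14 fatty acid genes none was called between ages, and 11 had positive values at 24 against 3 months, with a median of 0.52. Without 3-month replicate 2, Fads2 and Gpam were called higher at both 24 and 12 months than at 3 months, and Elovl6 was called lower at 12 months. DESeq2 called Fads2 higher at 24 against 3 months, and Elovl6 lower at 12 against 3 and higher at 24 against 12 months. At 24 against 12 months Elovl6 was also higher with these ages fitted alone, and with the block added 3 were, Elovl6, Acaca and Scd1.

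Markers of cell types and of proliferation also moved with age in the kidneys. The 12 proliferation markers summed to 62.8 to 70.0 CPM at 3 months, 49.6 to 56.5 CPM at 12 months and 73.6 to 116 CPM at 24 months, with 4 called higher at 24 against 3 months, 1 lower at 12 against 3 months and 6 higher at 24 against 12 months. The 8 markers of distal tubule and collecting duct summed to 1382 to 1792, 930.7 to 1130.4 and 1245 to 1605 CPM, with Avpr2 lower at 24 against 3 months (-1.40, adjusted p = 0.0291, edgeR), and Avpr2 and Aqp2 lower at 12 against 3 months. The 7 lymphocyte markers summed to 2.65 to 5.16 CPM at 3 months and to 21.5 to 130 CPM at 24 months, with 4 called higher. The 8 macrophage markers summed to 134 to 217 and 221 to 285 CPM, and the 14 proximal tubule markers to 12396 to 22931 and 19783 to 25857 CPM, of which 1 and 4 were called higher. Of 9 immediate early and heat shock genes, the sum was 161 to 346 CPM at 3 months, 88.6 to 109 at 12 months and 184 to 1184 at 24 months. Of 13 clock genes, 1 was called higher at 12 than at 3 months, Dbp (1.96, adjusted p = 0.0336, edgeR), and 1 lower, Arntl (-2.33, adjusted p = 0.0282, edgeR). The 11 markers of adrenal cortex and medulla summed to 3.65 to 6.89 CPM at 3 months and to at most 2.49 CPM at 24 months. In every kidney 1 of the 11 reached 1 CPM. Only 2 were tested, of which Akr1b7 was lower at 24 against 3 months (-1.49, adjusted p = 0.0277, edgeR). The 6 adipocyte markers summed to 36.6 to 472 CPM over the 9 kidneys, with none called between ages. The part of these in the values of the 7 genes was not tested.

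PTEC and kidneys differed in which of the genes stood high. In the fit of all 17 libraries, 5 members were called higher in PTEC at day 6 than in 3-month kidneys, where 32.0% of genes were, and 1 lower, where 35.5% were. Fdps (log2 fold change 3.26, adjusted p = 2.79e-08), Lss (2.37, adjusted p = 9.74e-08), Srebf2 (1.84, adjusted p = 8.72e-06), Fdft1 (1.81, adjusted p = 7.66e-07) and Idi1 (0.89, adjusted p = 0.00999) were higher (edgeR). In 29.0% of genes the day 6 libraries were all above the 3-month kidneys, as were those of 6 members, Sqle included, and in 33.4% they were all below. Hmgcs1 alone was lower (-0.71, adjusted p = 0.00396, edgeR), at 453 ± 61.5 CPM in PTEC and 739.7 ± 140.0 CPM in kidneys. Without 3-month replicate 2 it was not called (-0.45, adjusted p = 0.0707), and with libraries scaled by total counts, which moved the median of all genes by 0.60, it was at -0.10 (adjusted p = 0.643, edgeR). Sqle, at 0.42 (adjusted p = 0.0436, edgeR), stayed under the fold threshold. The threshold was passed when 3-month replicate 2 was left out (0.55, adjusted p = 0.0283), when replicate 3 was (0.52, adjusted p = 0.0412) and with total counts (1.03). Culture, cell mixture and gene set differ together here and cannot be told apart.

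Of the 14 other sterol enzymes, 5 were higher in PTEC at day 6 than in 3-month kidneys, led by the sterol oxidase Msmo1 (2.12, adjusted p = 1.98e-07, edgeR), and 3 were lower, led by Ebp (-1.71, adjusted p = 7.97e-08, edgeR). With total counts 9 were higher. Of all 17999 genes tested, 32.0% were higher and 35.5% lower in the main fit. Scaling by total counts gave 8371 higher and 4603 lower. Of 13 uptake genes 5 were higher, among them Scarb1 (1.98, adjusted p = 1.70e-08, edgeR) and the lysosomal transporter Npc1 (1.45, adjusted p = 1.47e-05, edgeR), and 3 lower, led by the tubular receptor Lrp2 (-3.64, adjusted p = 4.02e-05). Insig1 (0.98, adjusted p = 0.000994) and Srebf1 (0.76, adjusted p = 0.00674, edgeR) were 2 of the 3 SREBP control genes called higher, the other being the protease Mbtps2 (1.44, adjusted p = 3.38e-06, edgeR). Of the same list 7 were called lower, and 2 with total counts. Genes of LXR signalling, efflux and storage were higher in 2 of 12 cases, led by Soat2 (1.82, adjusted p = 0.0111, edgeR), and lower in 6, led by the hydroxylase Cyp7b1 (-8.66, adjusted p = 5.58e-13, edgeR). Of 13 isoprenoid genes 2 were higher, led by Fntb (1.51, adjusted p = 2.50e-06, edgeR), and 7 lower, led by Coq2 (-1.66, adjusted p = 2.61e-06, edgeR), against 5 and 3 with total counts. Of 14 fatty acid genes 7 were higher, led by the desaturase Scd2 (2.98, adjusted p = 3.82e-07, edgeR), and 5 lower, led by Pnpla3 (-4.18, adjusted p = 0.00114, edgeR).

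In kidneys the order per kilobase was led by Hmgcs1 at every age, with 161 CPM per kb at 3 months against 23.0 for Sqle and 12.3 for Srebf2, and it ended with Lss (2.10) and Fdps (1.15). At 24 months it was Hmgcs1 (147), Sqle (29.7), Srebf2 (18.8), Fdft1 (9.81), Idi1 (8.86), Lss (2.83) and Fdps (1.73). By group mean, Hmgcs1 was in the order 12-, 3- and 24-month kidneys, PTEC at day 6 and irradiated PTEC, with overlap among the kidneys alone. Irradiated PTEC were below all 3-month kidneys for Hmgcs1, Idi1 and Sqle, above all of them for Fdps, Lss and Srebf2, and overlapped them for Fdft1.

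The variation of the 7 genes within groups was compared as well. Each library's log2 CPM was set against the mean of its own group, so that differences between groups did not enter. Over 17 libraries the 21 pairs of members had a median Pearson r of 0.56, and 20 of 21 were positive, from -0.14 to 0.93. The highest was Fdps with Fdft1, at 0.93 over all libraries, 0.92 over the 8 PTEC and 0.93 over the 9 kidneys. In kidneys 4 pairs were negative, those of Idi1 with Lss, Fdps, Fdft1 and Srebf2, down to -0.41. The libraries of a group share preparation and depth, and no test is attached to these values. Pairs of other genes were not computed, so the count of positive pairs has no share over all genes beside it. Libraries of a group also differed in marker levels. The proximal tubule markers summed to 14528 CPM in 12-month replicate 2, against 25042 and 25698 CPM in replicates 1 and 3. The part of such differences in the pair values was not tested.

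**Figure D4:**
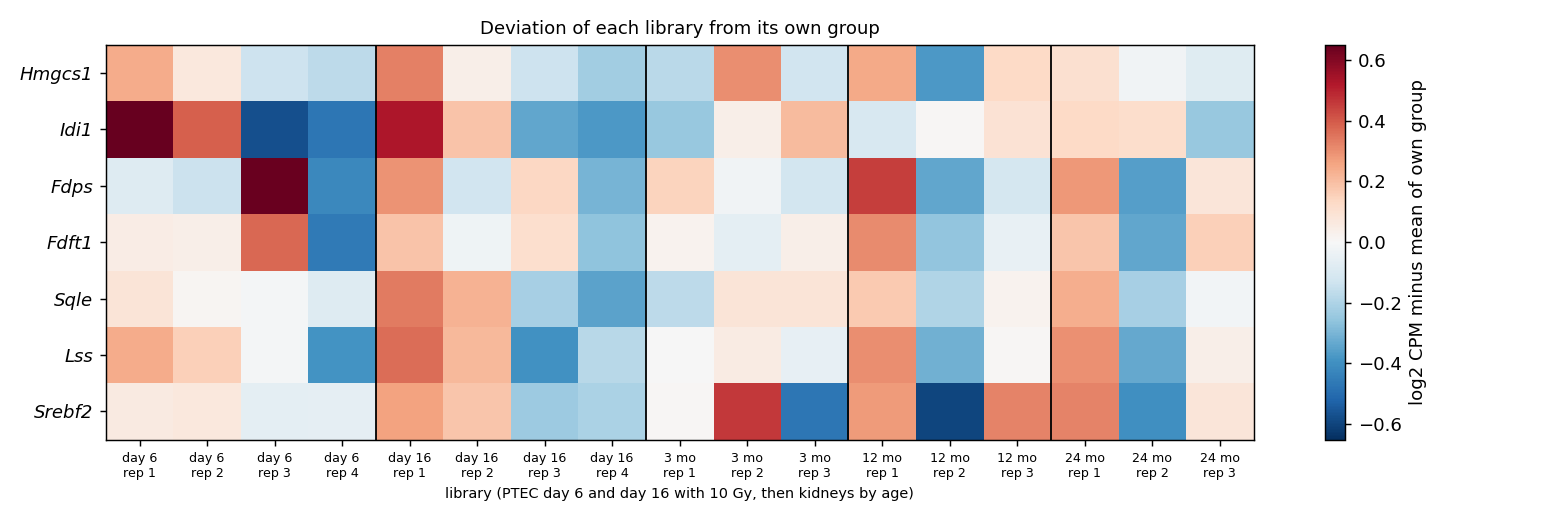
Log2 CPM of each gene in each of the 17 libraries minus the mean of its own group, red above and blue below the mean. Day 16 replicate 1 is above its group mean for all 7 genes, and 24-month replicate 2 is below it for all but Idi1.

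The genes whose deviations were most like the mean of the 7 members, among 13932 genes with at least 1 CPM, were Kctd10 (Pearson r = 0.91 over 17 libraries), Prkar1a (0.90), Ehd2 (0.88), Nsdhl (0.88), Sh3glb1 (0.86), Tgfb1i1 (0.86), Wasf1 (0.86), Hoxc10 (0.86), Fads1 (0.85) and Ttl (0.85). Nsdhl encodes a sterol dehydrogenase of the same chain and Fads1 a fatty acid desaturase, while the other 8 are in none of the lists used here.

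Reads of some members could be shared with other genes. Of the exon bases of Fdps 26.7% are also exons of Gm43738 on the same strand, which had no count in any library. Whether reads in these shared bases were counted for Fdps is not stated, so its level is uncertain to that extent. The near copy of Fdps with the highest level, Gm3571, stood at 1.90 CPM at day 6. Idi1 has the near copies Gm13502 (100% identity over 684 bases) and Gm35570 (97.7% over 681), at 0.67 and 0.020 CPM at day 6. Fdft1 has Gm6781 (97.4% over 1249 bases), at 0.16 CPM. How reads that match more than 1 gene were counted is not stated, and a copy's own level does not measure them. The levels of Fdps, Idi1 and Fdft1, also per kilobase, are uncertain to that extent. Of the exon bases of Fdft1 18.3% are shared with Ctsb on the opposite strand, which stood at 699 CPM at day 6, 624 after irradiation and 827 to 1009 CPM in the means of the kidney ages. How the counting treated strand is not stated, so the Fdft1 values are uncertain to that extent. Antisense overlaps of Hmgcs1 (12.1%), Idi1 (9.22%) and Lss (3.53%) were with genes under 1 CPM in every group.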

How the data were processed

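RNA of 8 PTEC cultures and 9 mouse kidneys had been sequenced by the authors from stranded poly(A) libraries in paired-end reads and processed with nf-core/rnaseq on GRCm38. The deposited values are raw counts for each gene, which the authors had not normalized. Aligner, counter and strand setting are not given in the sources used here. The counts were used as deposited and joined on identifiers without version, 53313 shared by all libraries and 53772 by the kidneys. Symbols and positions were taken from GENCODE M21.

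PTEC and kidneys were fitted apart, with the 3 ages sharing 1 estimate of the spread, and a joint fit of all 17 libraries served the comparison of PTEC with kidneys and the difference between the irradiation and the age contrast. Libraries were scaled with TMM, low genes removed with filterByExpr, and groups compared in edgeR by its quasi-likelihood test (robust), with p-values adjusted after Benjamini and Hochberg over all genes tested. Calls needed an adjusted p below 0.05 and a log2 fold change of more than 0.5 in size, while the difference between contrasts needed the adjusted p alone. All adjusted p-values are from edgeR unless DESeq2 is named. R 4.3.3, edgeR 4.0.16, limma 3.58.1, DESeq2 1.42.0, Python 3.11.15, numpy 2.4.6, pandas 2.3.3, scipy 1.17.1 and matplotlib 3.10.9 were used, and the fits were tested on simulated data. There 200 genes were changed, equally many by 1 and by 2 on the log2 scale. For irradiated against day 6 PTEC 150 were recovered (51 and 99). For kidneys of 24 against 3 months 120 were (26 and 94), so most genes changed by 1 were missed.

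The members and lists were chosen with earlier results of these data known. Named are the 7 members, the called genes with the highest and lowest log2 fold change of each list, Insig1 and Srebf1 throughout, and the 10 genes most like the members. For the difference between the irradiation and the age contrast the members alone are given. Some genes that the rule names are not reported here, though they stay in the counts and medians of their lists. Hsd17b7, Scap, Npc1, Stard4, Scarb1, Mylip and Apoe in PTEC, and the markers named, were chosen after their values were seen. Kidneys of 1 age were labelled as separate samples, and PTEC libraries are not stated to come from separate animals, so p-values measure the spread between libraries. Libraries of a group differed by more than sampling noise (chi-square per gene 17.0 to 341 over 21 pairs). Same-numbered PTEC libraries deviated together (r of 0.23 to 0.67 over the 4 pairs), as did 12- and 24-month kidneys (0.31 to 0.68 over 3 pairs), but not 3-month with 24-month (-0.59 to -0.05) or 12-month kidneys (-0.80 to -0.08). The alternatives were DESeq2's size factors, total counts, no filter, DESeq2, other fold thresholds, the compared groups alone, the replicate number as a block, and each library left out.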

Additional observations from a re-analysis of the deposited data

Results flagged for a closer look

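The difference between the PTEC and the kidney result was itself tested for each of the 7 genes, as the irradiation log2 fold change minus that of 24 against 3 months in the fit of all 17 libraries. All 7 passed at an adjusted p under 0.05 (edgeR), all in the lower direction, in which 12.2% of 17999 genes passed. The difference was -2.96 for Idi1 (adjusted p = 5.57e-05), -2.70 for Fdps (5.30e-05), -2.26 for Lss (5.06e-05), -2.18 for Hmgcs1 (3.36e-05), -2.03 for Sqle (2.35e-05), -2.00 for Fdft1 (7.85e-05) and -1.72 for Srebf2 (0.00215). In PTEC alone, each member was lower after irradiation in 4 of 4 same-numbered pairs of libraries, which the lack of overlap between the groups already fixed. In kidneys no member was called, and Fdps, Lss and Sqle were higher in all 24-month than in all 3-month libraries. PTEC and kidneys also differ in cell mixture, culture and gene set, which cannot be told apart from this difference.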

How the results depend on the processing

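The 7 members stayed lower in irradiated PTEC under every alternative run, those with the replicate number as a block included, and no member was called at 24 against 3 or at 12 against 3 months under any. With the compared ages alone and the block, 2 members were higher at 24 against 12 months, as were 1297 of 16686 genes. The block changed no other call of a member. In PTEC at day 6 against 3-month kidneys, the count of members lower was 0 instead of 1 with total counts, at an absolute log2 fold change over 1 and without 3-month replicate 2 (range 0 to 1 when libraries were left out). At the stricter threshold Hmgcs1 and Idi1 were not called, and with no fold threshold Sqle was. Kidney values near 0 changed sign without being called. At 12 against 3 months Lss was 0.023 with no filter. With 1 kidney left out, it ran from -0.16 to 0.15, Fdft1 from -0.20 to 0.092 and Srebf2 from -0.024 to 0.45. At 24 against 3 months Hmgcs1 then ran from -0.21 to 0.047, Idi1 from -0.00043 to 0.21 and Srebf1 from -0.0024 to 0.50. The cause was not tested. With 3 kidneys per age the widest member interval, that of Srebf2, spanned -0.11 to 1.34 at 24 against 3 months.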
